A study of Mus musculus with 6 samples.

Results

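The 8 genes described here encode enzymes that break down DNA or RNA, together with 1 that removes DNA precursors: Dnase1, Dnase1l1, Dnase1l3, Dnase2a, Trex1, Endog, Samhd1 and Rnaset2b. They were picked by symbol from a table of 40993 genes with the outcome of the diet comparison already known, so their differences between diets are given as values, without a test. The table holds whole kidneys of C57BL/6 mice aged 2 months, 3 samples from mice on an adenine-enriched diet (adenine 1 to 3) and 3 from mice on a standard diet (standard 1 to 3). Adenine feeding is a chemical model of kidney injury, in which a poorly soluble product of adenine precipitates in the tubules. The labels give neither the adenine dose nor the duration of feeding, and they do not say that the samples came from separate animals. P-values printed for other genes therefore measure only the spread between these samples, which may be technical. Values are FPKM, fragment numbers scaled by transcript length and by library size, so levels can be compared between genes, and the number after each ± is the SD within a diet (n = 3).

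Cells meet foreign or misplaced DNA and RNA in 3 settings, and each setting has its own nucleases. Secreted enzymes of the DNase I family digest DNA outside cells, in urine, serum and tissue fluid. Acid nucleases of the lysosome clear the nucleic acid of engulfed cells, and nucleases of the cytosol and mitochondria degrade DNA that would otherwise reach sensors such as cGAS. Dnase1 is known as an enzyme made in quantity by the kidney.

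Most of the low FPKM values used to estimate depth lay near steps of 1 fragment. At the best-fitting depth, 65.4% to 74.5% of them came within 0.15 of a whole fragment. With a nominal fragment of 200 bp, that depth was about 17.3 to 23.5 M fragments in the adenine samples and 17.2 to 20.2 M in the standard samples. At the lowest depth 3 fragments are worth 0.0966 FPKM for a transcript of 2 kb. All 8 genes passed the filter for testing, 0.5 FPKM or more on average, which 15431 genes met. On the log2(FPKM + 1) scale the median change of those genes, adenine over standard, was 0.25. Median-of-ratios scaling moved it to -0.01. That scaling takes each gene's ratio to its geometric mean over the samples and divides each library by its median ratio. Folds below are ratios of mean FPKM as deposited, with the rescaled ratio beside them where the 2 differ in direction or by much. All 12 kidney tubule and glomerulus markers were detected in every group, led by Umod.

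Dnase1 (ENSMUSG00000005980, chromosome 16, 4036942 to 4040024, plus strand, GRCm38) encodes the secreted endonuclease DNase I. It stood at 32.4, 45.1 and 75.3 FPKM in adenine 1 to 3 and at 514, 537 and 417 FPKM in standard 1 to 3. The groups lay far apart: the lowest standard sample was 5.53 times the highest adenine sample. The means were 50.9 ± 22.05 FPKM in adenine and 489 ± 64.2 FPKM in standard kidneys (n = 3 each), a 9.62-fold lower level with the adenine-enriched diet. The ratio of adenine to standard was 0.104 as deposited, 0.0863 after median-of-ratios scaling and 0.106 after quantile normalization. It lay between 0.0791 and 0.123 when any 1 sample was left out. Among 21309 protein-coding genes Dnase1 ranked 1833rd by mean level in adenine kidneys and 128th in standard kidneys. Of the 9254 protein-coding genes with a standard mean of at least 5 FPKM, 4 had a lower ratio, and of the 855 with at least 100 FPKM, 1 did. Both sets were cut on the standard mean, the diet in which Dnase1 is high. Dnase1 was also chosen with this comparison known, so nothing is read from its place among them. In whole tissue, fewer cells that make a transcript and less of it per cell cannot be told apart, and this holds for every value below.

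**Figure D1:**
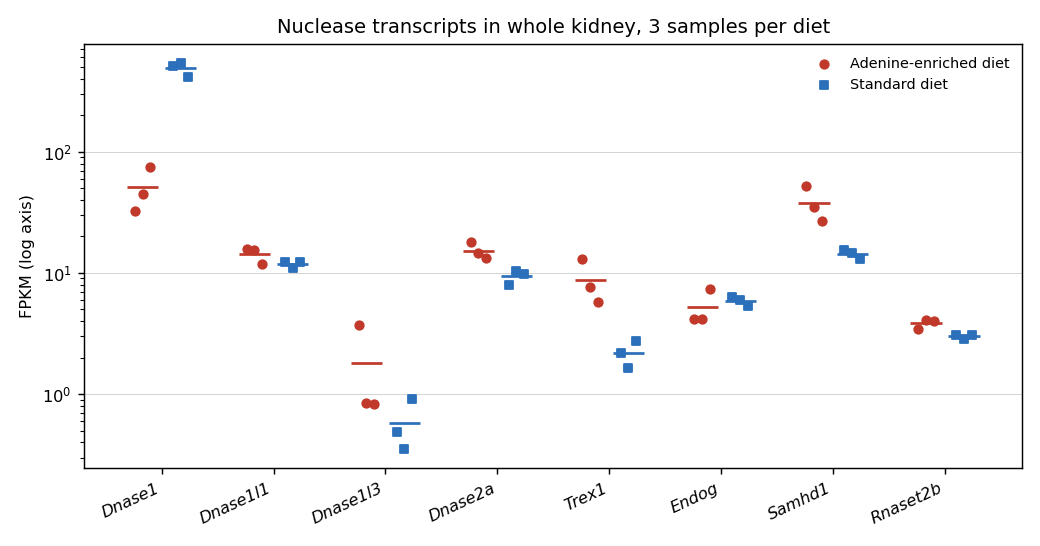
FPKM on a log axis of the 8 nuclease genes in each kidney sample, with adenine samples as red circles, standard samples as blue squares and a bar at each group mean. Dnase1 is the one gene whose adenine samples all lie below its standard samples, at 32.4 to 75.3 against 417 to 537 FPKM.

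The promoter of Dnase1 is shown because this gene differs most between the diets. The window runs from 250 bases before to 50 bases after a transcription start that RefSeq annotates in GRCm38.p6, at chr16:4036786-4037085 on the plus strand, and is written from 5′ to 3′. Capitals mark, in order, the letters GTTAAT, the core bound by the tubule transcription factor HNF1, and the TATA box letters TATAAA, both read on the opposite strand.
Dnase1: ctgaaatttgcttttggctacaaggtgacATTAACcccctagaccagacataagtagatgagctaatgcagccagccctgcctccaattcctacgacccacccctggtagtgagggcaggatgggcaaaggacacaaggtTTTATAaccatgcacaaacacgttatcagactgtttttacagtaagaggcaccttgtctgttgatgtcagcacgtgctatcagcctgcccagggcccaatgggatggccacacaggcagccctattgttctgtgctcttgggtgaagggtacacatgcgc
The matches are at positions -221 and -110 relative to the start. Of all 32817 promoter windows of this length, 7.10% hold GTTAAT and 13.6% hold TATAAA on either strand. RefSeq places another Dnase1 start further along the gene, and its window holds the same TATA match but no GTTAAT. Among the promoter windows of the other 6 matched genes, that of Endog also holds GTTAAT, at position -231. Gm15879, an antisense transcript, overlaps Dnase1 by 906 bases. It averaged 1.28 ± 0.539 FPKM in adenine and 3.31 ± 0.821 FPKM in standard kidneys. Trap1, a mitochondrial chaperone gene on the opposite strand, overlaps by 54 bases. It averaged 110 ± 24.8 FPKM in adenine and 153 ± 15.2 FPKM in standard kidneys. The library kit is not stated to mark strand, so reads in the shared bases cannot be assigned. Gm15879 lies far below Dnase1 in both diets.

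Among the 6 DNA nucleases of this set, without the other DNA-degrading enzymes described below, Dnase1 made up most of the transcripts of the standard kidney. Of the summed FPKM of Dnase1, Dnase1l1, Dnase1l3, Dnase2a, Trex1 and Endog, it held 37.2%, 51.3% and 65.8% in adenine 1 to 3 and 94.6%, 94.8% and 93.1% in standard 1 to 3. The means were 51.4 ± 14.3% in adenine and 94.2 ± 0.964% in standard kidneys. The summed level of the 6 genes averaged 96.4 ± 15.6 FPKM in adenine and 519 ± 63.2 FPKM in standard kidneys. Without Dnase1 the order of the groups turned: the other 5 genes summed to 54.7, 42.8 and 39.2 FPKM in adenine 1 to 3 and to 29.2, 29.4 and 31.1 FPKM in standard 1 to 3. As deposited, the sums of the 5 did not overlap between the diets, a separation in the direction that 44.4% of single tested genes also showed. Median-of-ratios scaling lowers the ratio of each of the 5, for Dnase1l1 from 1.22 to 0.985 and for Dnase2a from 1.63 to 1.31. The sums were not rescaled.

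**Figure D2:**
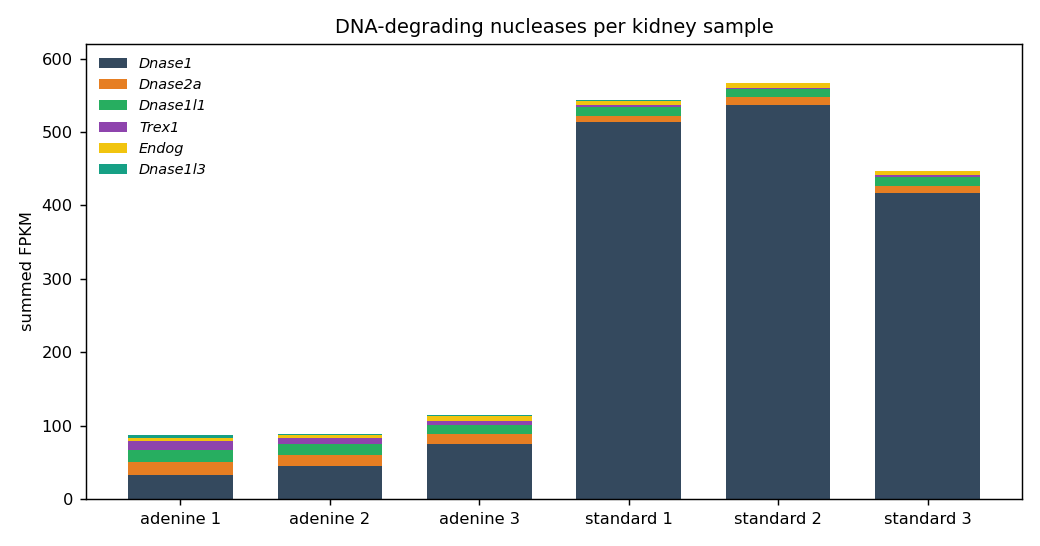
Summed FPKM of 6 DNA-degrading nuclease genes in each of the 6 kidney samples, stacked by gene on an axis that starts at 0. Dnase1, the dark block, is 37.2% to 65.8% of the adenine bars and 93.1% to 94.8% of the standard bars.

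The order of levels among the 8 genes also differed. In adenine kidneys it ran from Dnase1 through Samhd1, Dnase2a, Dnase1l1, Trex1, Endog and Rnaset2b to Dnase1l3. Only 2 neighbours in that order had separate ranges, Samhd1 above Dnase2a and Endog above Rnaset2b. In standard kidneys the order was Dnase1, Samhd1, Dnase1l1, Dnase2a, Endog, Rnaset2b, Trex1 and Dnase1l3, and every neighbour's range was separate. Trex1 thus stood above Endog and Rnaset2b in the adenine order and below both in the standard order. The samples of the adenine group were also more spread: the coefficient of variation was 43.3% in adenine and 13.1% in standard kidneys for Dnase1, and 34.3% in adenine and 8.58% in standard kidneys for Samhd1.

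The relatives of Dnase1 are similar in sequence but did not share its values. Over the aligned coding bases Dnase1 is 62.0% identical to Dnase1l1, 63.3% to Dnase1l2 and 60.8% to Dnase1l3. Dnase1l1 (chromosome X, 74273217 to 74282337, minus strand), a family member held at the cell membrane, was 15.9, 15.5 and 11.9 FPKM in adenine 1 to 3 and 12.2, 11.1 and 12.3 FPKM in standard 1 to 3. The groups overlapped. The ratio of means was 1.22, and it turned to 0.985 after median-of-ratios scaling and to 0.954 after quantile normalization. Dnase1l1 overlaps Taz, a cardiolipin remodelling gene on the opposite strand, by 426 bases.

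Dnase1l3 (chromosome 14, 7964533 to 7994573, minus strand) encodes a secreted enzyme of macrophages and dendritic cells that digests chromatin in particles shed by dying cells. It was 3.70, 0.852 and 0.835 FPKM in adenine 1 to 3 and 0.488, 0.354 and 0.905 FPKM in standard 1 to 3. Adenine 1 stood alone, and the other adenine samples lay within the standard range. The ratio of means was 3.09, falling to 1.45 without adenine 1 and reaching 4.27 without standard 3. T and B cell marker RNA, in a list led by Jchain, was also highest in adenine 1. That sample had a summed 499 FPKM against 64.2 and 91.7 FPKM in adenine 2 and 3 and 10.7 to 58.8 FPKM in the standard samples. Its macrophage marker sum was also the highest, 1998 FPKM against 1103 and 864 FPKM in adenine 2 and 3. So was its dendritic cell marker sum, 46.3 FPKM against 34.9 and 25.3 FPKM, while neutrophil marker RNA was highest in adenine 2. The part of these cell types in the Dnase1l3 value was not tested. Dnase1l2, the remaining DNase I relative, averaged 2.99 ± 1.04 FPKM in adenine and 3.62 ± 1.54 FPKM in standard kidneys and was not called (limma adjusted p = 0.619).

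Dnase2a, Trex1 and Samhd1 act in lysosomes, cytosol and nucleus. Each was higher in every adenine sample than in any standard sample, as were Rnaset2b, described below, and 44.4% of all tested genes. Dnase2a (chromosome 8, 84908560 to 84922915, plus strand) encodes the acid DNase with which macrophages digest the DNA of engulfed cells. It was 17.9, 14.6 and 13.3 FPKM in adenine 1 to 3 and 7.96, 10.3 and 9.81 FPKM in standard 1 to 3, a ratio of means of 1.63. All adenine samples lay above all standard samples, and the ratio was 1.31 after median-of-ratios scaling. Mast1, a kinase gene on the opposite strand, shares 11013 bases with it but averaged 0.509 ± 0.0423 FPKM in adenine and 0.111 ± 0.0596 FPKM in standard kidneys.

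Trex1 (chromosome 9, 109057933 to 109060338, minus strand) encodes the exonuclease that trims DNA in the cytosol from its 3′ ends. It was 13.02, 7.62 and 5.80 FPKM in adenine 1 to 3 and 2.16, 1.64 and 2.75 FPKM in standard 1 to 3. Its lowest adenine sample was 2.11 times its highest standard sample. The means were 8.81 ± 3.75 FPKM in adenine and 2.18 ± 0.558 FPKM in standard kidneys, a ratio of 4.03, or 3.20 after median-of-ratios scaling and 2.61 after quantile normalization. Its whole span lies within Atrip, a checkpoint gene on the same strand, so how reads were split between the 2 is uncertain. Atrip averaged 6.26 ± 0.207 FPKM in adenine and 4.93 ± 0.515 FPKM in standard kidneys.

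Samhd1 (chromosome 2, 157097533 to 157135265, minus strand) encodes an enzyme that splits deoxynucleoside triphosphates, the building blocks of DNA, and for which nuclease activity has also been described. It was 52.4, 34.9 and 26.9 FPKM in adenine 1 to 3 and 15.5, 14.7 and 13.1 FPKM in standard 1 to 3. The groups did not overlap, and the ratio of means was 2.64, or 2.12 after median-of-ratios scaling. In adenine 1 it stood above Dnase1, at 52.4 against 32.4 FPKM, and in the other 5 samples it stood below. The Samhd1 promoter is shown as the one window among those of the matched genes with the letters TTCNNNGAA, the palindrome bound by STAT factors, in capitals. It lies at chr2:157135047-157135346 on the minus strand, GRCm38.p6, from RefSeq.
Samhd1: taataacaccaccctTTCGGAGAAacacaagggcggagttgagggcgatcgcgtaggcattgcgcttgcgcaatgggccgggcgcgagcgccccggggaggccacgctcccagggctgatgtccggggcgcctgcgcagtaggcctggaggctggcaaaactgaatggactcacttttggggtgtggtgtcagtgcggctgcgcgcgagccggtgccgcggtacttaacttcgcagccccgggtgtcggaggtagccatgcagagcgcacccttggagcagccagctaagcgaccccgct
The match is at position -235 relative to the start, and 8.29% of all windows hold one. The core of the interferon-stimulated response element was in none of the windows of the 7 matched genes and in 3.43% of all windows. A match is a description of these letters only.

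Endog and Rnaset2b showed small differences. Endog (chromosome 2, 30171493 to 30174069, plus strand), an endonuclease of mitochondria, was 4.17, 4.19 and 7.31 FPKM in adenine 1 to 3 and 6.35, 5.99 and 5.33 FPKM in standard 1 to 3. The groups overlapped, with adenine 3 above every standard sample and the other adenine samples below. The ratio of means was 0.887, and 0.622 after quantile normalization. Endog overlaps D2Wsu81e on the opposite strand by 617 bases.

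Rnaset2b (chromosome 17, 6978860 to 7011299, plus strand) encodes a lysosomal RNase, and the mouse carries a second copy, Rnaset2a. Rnaset2b was 3.45, 4.08 and 4.03 FPKM in adenine 1 to 3 and 3.05, 2.86 and 3.08 FPKM in standard 1 to 3. The groups did not overlap, but the ratio of 1.28 fell to 1.05 after median-of-ratios scaling and to 0.815 after quantile normalization, so its direction depends on scaling. The coding sequences of the 2 copies, 777 bases each, are identical, and the division of reads between them is uncertain. Rnaset2a averaged 2.60 ± 0.370 FPKM in adenine and 2.25 ± 0.389 FPKM in standard kidneys and was not called (limma adjusted p = 0.458). The ratio for the sum of both copies was 1.23.

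In all, 4 of the 8 genes (Dnase2a, Trex1, Samhd1 and Rnaset2b) had every adenine sample above every standard sample, which 44.4% of all tested genes did. In the other direction Dnase1 alone had every adenine sample below every standard sample, against 11.8% of tested genes. The other 3, Dnase1l1, Dnase1l3 and Endog, overlapped. A ratio of means of at least 2 was reached by 3 of the 8, Dnase1l3, Trex1 and Samhd1, and by 18.3% of tested genes. A ratio of at most 0.5 was reached by Dnase1 and by 2.69% of tested genes. Since the 8 were chosen with this comparison in view, nothing is read from these shares. Their median log2 change was 0.46, against 0.25 over all tested genes, and 0.21 after median-of-ratios scaling, against -0.01.

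Some markers of other cell types also differed between the diets. All 12 macrophage markers rose, and their summed level was 1998, 1103 and 864 FPKM in adenine 1 to 3 and 149, 140 and 120 FPKM in standard 1 to 3, led by Lyz2. Of 10 dendritic cell markers 9 were in the table and 7 were tested, of which 6 rose; their sum was 25.3 to 46.3 FPKM in adenine and 9.09 to 10.8 FPKM in standard samples, led by Itgax. The dendritic cell gene Xcr1 was not called without adenine 2 or any one standard sample, nor Zbtb46 without adenine 2 or standard 3 (limma adjusted p = 0.0508 to 0.0652). Of the 8 T and B cell markers 3 rose, beside 29.7% of all genes tested, and 1, Cd4, rose after median-of-ratios scaling. The most abundant was Jchain, which was not called (limma adjusted p = 0.0653). Of those 3, Cd3e and Cd3d were not called without adenine 2 or any one standard sample (limma adjusted p = 0.0657 to 0.115), and Cd4 was called in every such fit. Neutrophil markers summed to 8.73 to 32.4 FPKM in adenine and 2.53 to 13.02 FPKM in standard samples, led by S100a8, with Elane listed at 0 in every sample. The tested neutrophil markers, S100a8 and S100a9, did not pass (limma adjusted p = 0.0591 and 0.0554). As deposited, adenine 1 had the most macrophage marker RNA, the most Trex1, Samhd1, Dnase2a, Dnase1l3 and Dnase1l1, and the least Dnase1 and Endog. Among the adenine samples it also had the least Rnaset2b. Its library was the one divided by the largest value in median-of-ratios scaling, 1.19. The part of these cell types in the values of the nucleases was not tested.

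Tubule markers moved the other way in part. Of the 12 kidney markers 5 fell and 2 rose, beside 6.84% falling and 29.7% rising of all genes tested. The falls were in the proximal tubule genes Lrp2, Slc34a1 and Slc5a2, the thick limb transporter gene Slc12a1 and the intercalated cell gene Atp6v1g3. The podocyte gene Nphs1 was 1 of the 2 that rose. After median-of-ratios scaling 5 fell and 1 rose, beside 15.3% falling and 16.7% rising of all genes. The falls of Lrp2, Slc34a1 and Slc12a1 were not called without adenine 2 or any one standard sample, nor that of Lrp2 without adenine 1 (limma adjusted p = 0.0532 to 0.141). Slc5a2, the glucose transporter gene SGLT2, averaged 36.6 ± 7.50 FPKM in adenine and 105 ± 23.2 FPKM in standard kidneys, a 2.86-fold lower level. Slc34a1, a phosphate transporter gene, averaged 506 ± 222 FPKM in adenine and 1232 ± 245 FPKM in standard kidneys. The sum over all 12 markers, most of it Umod, was 3987 to 5407 FPKM in adenine and 4799 to 5560 FPKM in standard samples. The part of tubule cell number in the Dnase1 value was not tested. Of the 8 endothelial markers, led by Emcn, none passed the test as deposited. After median-of-ratios scaling 4 of them fell, beside 15.3% of all genes. The pancreatic genes Prss2, Ctrb1 and Pnlip were at 0 in every sample; Cela1 led the markers of neighbouring organs, at 8.82 ± 1.59 FPKM in adenine and 19.0 ± 2.32 FPKM in standard kidneys.

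Over the 6 samples, the genes whose centred log2(FPKM + 1) profile lay nearest to that of Dnase1 were Cyp2d12, Akr1c18, Akr1c14, Cyp4a12a and Kap, out of 9920 protein-coding genes compared. Their Euclidean distances were 0.936, 1.07, 1.53, 1.71 and 1.75 log2 units. Cyp2d12, a cytochrome P450 gene, averaged 1.70 ± 1.09 FPKM in adenine and 18.3 ± 4.54 FPKM in standard kidneys. Akr1c18 and Akr1c14 encode steroid-reducing enzymes. Akr1c14 averaged 47.7 ± 31.5 FPKM in adenine and 190.2 ± 9.56 FPKM in standard kidneys. Kap, the kidney androgen-regulated protein gene, averaged 20292 ± 11132 FPKM in adenine and 71354 ± 8562 FPKM in standard kidneys. Dnase1 and each of these 5 genes were lowest in adenine 1. The diets dominate all of these profiles, so likeness to Dnase1 here is mainly a shared difference between diets.

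**Figure D3:**
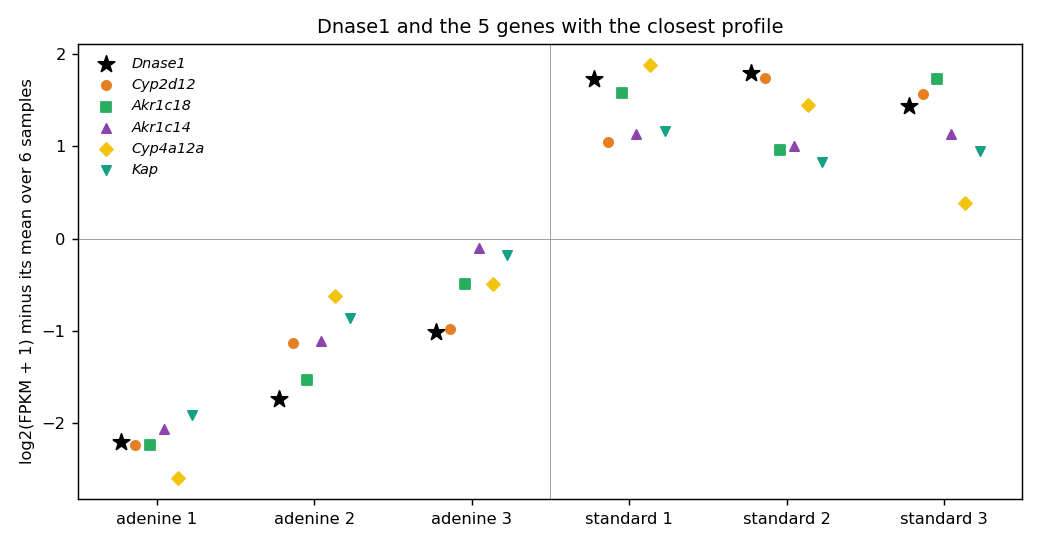
Centred log2(FPKM + 1) of Dnase1 (black star) and of the 5 protein-coding genes with the smallest Euclidean distance to it, in each of the 6 kidney samples. Within the adenine group all 6 genes are lowest in adenine 1 and highest in adenine 3, and every adenine value lies below every standard value of the same gene.

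The wider set of DNA-degrading enzymes was tested with limma over all 15431 genes, at a Benjamini-Hochberg adjusted p under 0.05, as were the lists that follow. These lists too were chosen with earlier results of these data known, so their counts are not independent of those results. At that threshold 36.5% of all genes changed, 29.7% rising and 6.84% falling, while 16.7% rose and 15.3% fell after median-of-ratios scaling, and 2140 genes rose and 2237 fell after quantile normalization. Of 30 other DNA-degrading enzymes 27 were tested, 6 rose, 1 fell and 20 did not pass, with a median log2 change of 0.39 against 0.25 over all genes. After median-of-ratios scaling 4 rose, Pld4, Pld3, Fen1 and Mus81, and 2 fell, Nme1 and Tatdn2. Quantile normalization turned the balance, with 3 rising and 5 falling. The largest rise was that of Pld4, an endolysosomal exonuclease of single-stranded nucleic acid, which was 46.1, 28.1 and 20.5 FPKM in adenine 1 to 3 and 4.68, 3.45 and 5.11 FPKM in standard 1 to 3. The groups were far apart, 7.16-fold in means and 2.53 ± 0.29 (SE) on the log2 scale (limma adjusted p = 0.00443).

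Pld3, its relative in the same compartment, averaged 41.9 ± 4.55 FPKM in adenine and 24.99 ± 2.31 FPKM in standard kidneys (limma adjusted p = 0.00762). Mus81, an endonuclease of branched DNA, averaged 10.9 ± 1.74 FPKM in adenine and 6.00 ± 0.729 FPKM in standard kidneys (limma adjusted p = 0.0123). Fen1, the flap endonuclease of DNA replication, rose by 0.86 log2 units (limma adjusted p = 0.0166), a call that ended without adenine 2, standard 1, standard 2 or standard 3 (limma adjusted p = 0.0524 to 0.0609) and with quantile normalization (limma adjusted p = 0.0730). Nme1, a nucleoside diphosphate kinase with reported nuclease activity, fell to 35.3 ± 3.59 FPKM in adenine, against 50.1 ± 8.03 FPKM in standard kidneys (limma adjusted p = 0.0332), a call that ended without any one sample other than adenine 3 (limma adjusted p = 0.0555 to 0.107). The list counted 7 calls with all samples, 9 without adenine 3, 4 without adenine 1 and 3 without any one of the others.

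Of 19 secreted, lysosomal and interferon-linked RNases 13 were tested, 6 rose, 2 fell and 5 did not pass. Over all genes tested 29.7% rose and 6.84% fell. After median-of-ratios scaling 5 of the RNases rose and 2 fell, beside 16.7% rising and 15.3% falling of all genes. Rnase4, a secreted RNase, was 39.2, 27.9 and 21.2 FPKM in adenine 1 to 3 and 7.45, 5.73 and 6.75 FPKM in standard 1 to 3 (log2 change 1.96, limma adjusted p = 0.00428). Ang, the angiogenin gene, shares 10931 bases of its span with Rnase4 on the same strand, so the reads may be split between them; it rose by 1.07 log2 units (limma adjusted p = 0.00762) and was picked after its value was seen. Zc3h12a, whose product degrades cytokine messages, averaged 6.53 ± 1.06 FPKM in adenine and 1.63 ± 0.468 FPKM in standard kidneys (limma adjusted p = 0.00494).

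Isg20, an interferon-induced exonuclease, rose by 1.27 log2 units (limma adjusted p = 0.0278). Its call ended without adenine 2 or any one standard sample (limma adjusted p = 0.0633 to 0.0824). Both falls were in abundant transcripts. Lactb2, a mitochondrial RNase gene, was 80.9, 117 and 166 FPKM in adenine 1 to 3 and 225, 217 and 253 FPKM in standard 1 to 3 (log2 change -0.98, limma adjusted p = 0.0265). Rnasek, which encodes a small endosomal membrane protein, averaged 135 ± 25.7 FPKM in adenine and 221 ± 12.1 FPKM in standard kidneys (limma adjusted p = 0.0147). The fall of Lactb2 was not called without adenine 2 or any one standard sample, and that of Rnasek not without adenine 2 or standard 1 (limma adjusted p = 0.0526 to 0.0835). The list counted 8 calls with all samples, 3 without adenine 2 and 4 without any one standard sample.

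**Figure D4:**
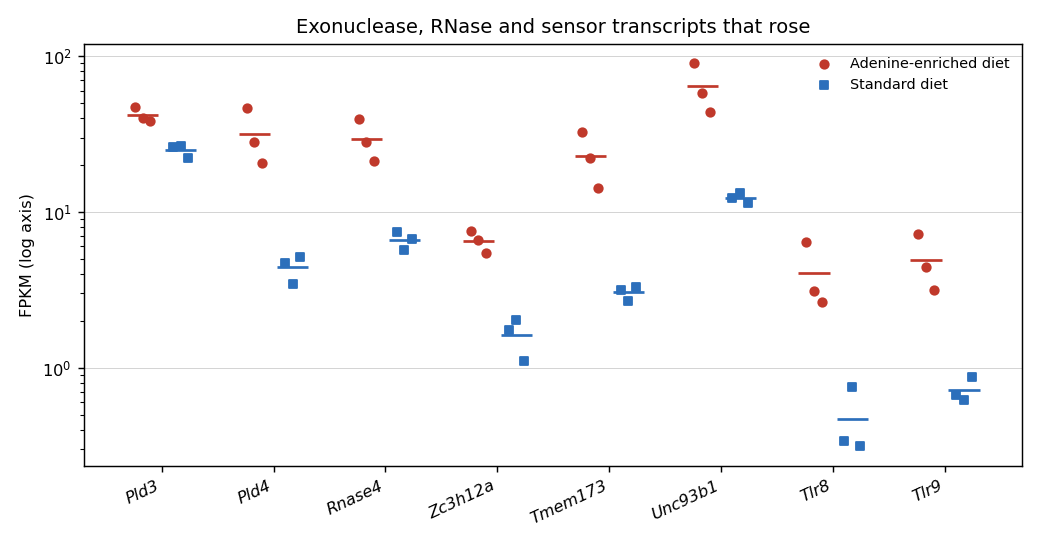
FPKM on a log axis of 8 nuclease, RNase and sensor genes that rose, in each kidney sample, with adenine samples as red circles, standard samples as blue squares and a bar at each group mean. For each of the 8 genes all adenine samples lie above all standard samples, for Pld4 at 20.5 to 46.1 against 3.45 to 5.11 FPKM. The 8 were picked as genes that rose, so this separation is not independent of the choice. It is shared by 44.4% of all tested genes.

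Of 31 housekeeping nucleases of RNA decay and processing, all tested, 9 rose and 22 did not pass. The share rising was 29.0%, beside 29.7% of all genes, and the median log2 change 0.27 beside 0.25. After median-of-ratios scaling 2 rose and 2 fell, beside 16.7% rising and 15.3% falling of all genes. The falls were those of Eri2 and Rnaseh2b, neither of which was called with the replicate block added. Eri2 averaged 26.6 ± 14.7 FPKM in adenine and 59.3 ± 21.2 FPKM in standard kidneys (limma adjusted p = 0.0460 with that scaling and 0.0779 with the block as well, 0.0146 to 0.163 over its alternatives). It shares 18835 bases with Acsm3 on the opposite strand, which averaged 249.5 ± 162 FPKM in adenine and 498 ± 50.7 FPKM in standard kidneys, so the reads behind the Eri2 value are uncertain. The rises of Snd1, a subunit of the RNA-induced silencing complex, and Rnaseh2a, the catalytic subunit of RNase H2, were called in both. Snd1 averaged 114 ± 7.76 FPKM in adenine and 63.8 ± 3.26 FPKM in standard kidneys (log2 change 0.83, limma adjusted p = 0.00418). Rnaseh2a averaged 14.7 ± 0.608 FPKM in adenine and 8.93 ± 0.936 FPKM in standard kidneys (limma adjusted p = 0.00764). Isg20l2 and Eri1, which process ribosomal and histone RNA, rose by 0.63 and 0.52 log2 units as deposited and were not called after that scaling (limma adjusted p = 0.0520 and 0.112). Eri1 was not called either without any one sample other than adenine 3 (limma adjusted p = 0.0733 to 0.105). The list counted 14 calls without adenine 3, 4 without standard 1 and 3 without any one of the others.

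Of 9 inhibitors and partners of nucleases 5 rose and 4 did not pass, beside 29.7% rising of all genes tested. After median-of-ratios scaling 1 rose, beside 16.7% of all genes. That 1 was Actb, whose actin binds and blocks DNase I. Actb was 917, 695 and 567 FPKM in adenine 1 to 3 and 371, 369 and 294 FPKM in standard 1 to 3 (log2 change 1.05, limma adjusted p = 0.0135). In means it stood at 726 ± 177 FPKM in adenine and 345 ± 43.8 FPKM in standard kidneys, beside Dnase1 at 50.9 FPKM in adenine and 489 FPKM in standard kidneys. The call for Actb ended without adenine 2 or standard 3 (limma adjusted p = 0.0510 and 0.0527). Rnh1, the inhibitor of secreted RNases, rose by 0.39 log2 units as deposited and was not called after that scaling (limma adjusted p = 0.508) nor without adenine 2 (limma adjusted p = 0.0645). Actg1, Hmgb2 and Dffa were likewise not called after scaling (limma adjusted p = 0.141, 0.0959 and 0.551). None of these 3 was called without adenine 2 or any one standard sample (limma adjusted p = 0.0574 to 0.119), Actg1 and Dffa were not without adenine 1, and Dffa was not without adenine 3. The list counted 6 calls without adenine 3, 3 without adenine 1, 2 without standard 1 or standard 2, 1 without standard 3 and 0 without adenine 2.

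Of 24 sensors and adaptors that detect nucleic acid, all tested, 18 rose and 6 did not pass, and 16 rose after median-of-ratios scaling. Over all genes tested 29.7% rose, and 16.7% after that scaling. The median log2 change was 1.03, against 0.25 over all genes, and 0.83 against -0.01 after that scaling. Tmem173, the adaptor STING downstream of cGAS, was 32.4, 22.3 and 14.1 FPKM in adenine 1 to 3 and 3.16, 2.66 and 3.30 FPKM in standard 1 to 3 (log2 change 2.497, limma adjusted p = 0.00420). Unc93b1, which carries the toll-like receptors to endosomes, averaged 64.0 ± 23.7 FPKM in adenine and 12.3 ± 0.949 FPKM in standard kidneys (limma adjusted p = 0.00419). The groups did not overlap for either gene. Tlr9, the endosomal receptor for DNA, averaged 4.93 ± 2.08 FPKM in adenine and 0.718 ± 0.137 FPKM in standard kidneys, and Tlr8 rose by 1.72 log2 units (limma adjusted p = 0.00709 and 0.00912). Mb21d1, the cGAS gene, was low, at 1.34 ± 0.4997 FPKM in adenine and 0.320 ± 0.0880 FPKM in standard kidneys (limma adjusted p = 0.0213), and it was picked after its value was seen. Its call ended without adenine 2 or any one standard sample (limma adjusted p = 0.0542 to 0.0704). The list counted 21 calls without adenine 3, 15 without adenine 1, 12 without standard 1 or standard 3, 10 without standard 2 and 8 without adenine 2. Macrophages express many of these sensors, and the 12 macrophage markers rose in the same samples, and their part in these values was not tested.

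**Figure D5:**
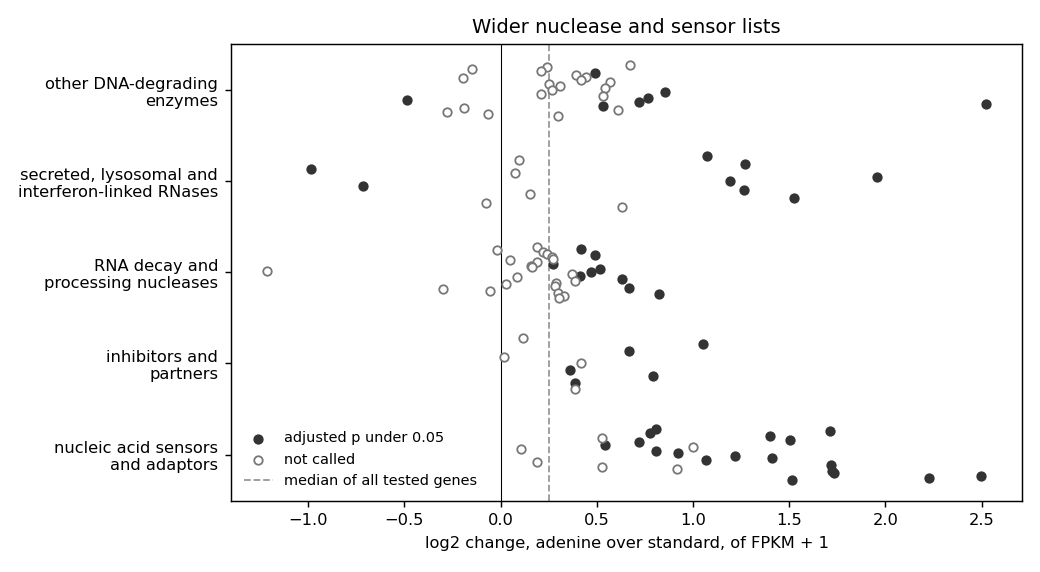
Log2 change of FPKM + 1, adenine over standard, for each tested gene of the 5 wider lists, filled where limma called it and open where not, with a solid line at 0 and a dashed line at the median of all tested genes, 0.25. The sensors and adaptors lie furthest to the right, with a median of 1.03, and the RNA decay and processing nucleases centre on 0.27.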

How the data were processed

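RNA of 6 whole-kidney samples was sequenced as 100 bp read pairs on an Illumina HiSeq2500 from TruSeq libraries of 1 µg total RNA, per the labels' protocols. The programs bcl2fastq 2.0, TopHat and Cufflinks 2.1.1 and the builds mm10 and GRCm38 are listed in the submitters' processing notes. For the TopHat version, annotation and strand setting nothing is given in the sources used here. FPKM per gene were deposited by the authors, which keep no counts. Depth follows from the steps between low values, with a nominal fragment of 200 bp. Only 65.4% to 74.5% of low values came within 0.15 of whole fragments, so no count test was run. Another table, with 6 value columns of samples not listed here, was not used.

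The diets were compared with limma 3.58.1 (R 4.3.3; intensity trend, two-sided) on log2(FPKM + 1), which understates the change of low genes, in genes averaging 0.5 FPKM or more, with Benjamini-Hochberg adjustment over all 15431 and a threshold of 0.05. The code was tested on simulated data. Alternatives were pseudocounts of 0.1 and 0.5, no filter or a mean of 5, median-of-ratios and quantile scaling, a replicate block, and leaving out each sample.

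The 8 genes and all lists were chosen with earlier results of these data known. Named genes were the 8, up to 4 rises and 4 falls per wider list, the 5 profiles nearest to Dnase1, genes overlapping the 8, the paralog Rnaset2a, and the most abundant and absent genes of each marker list. Other names, Ang, Dnase1l2, Tatdn2, Eri2 with Acsm3, Rnaseh2b, Mb21d1, Dffa, Slc5a2, Slc34a1 and the markers that changed, were picked after their values were seen. Of the identifiers 97.7% were found in GENCODE M21, which gave coding sequences and overlaps; coordinates are those of the deposited table. RefSeq promoter windows (GRCm38.p6) matched 7 of the 8 genes. Irf8 was not analysed here. Some genes that the naming rule selects are not reported here.

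The main fit did not pair the samples. Only the replicate block took equal replicate numbers as pairs, and no label states a pairing. Deviations from group means correlated at 0.257, 0.143 and 0.181 within numbers and at -0.187 to 0.0376 across them. The pairing thus comes from the same values to which the block is fitted and is not independent of them.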

Additional observations from a re-analysis of the deposited data

How the results depend on the processing

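Over all genes 5637 were called, and 2119 (without adenine 2) to 7046 (without adenine 3) when 1 sample was left out; for the lists these ranges were 3 to 9 calls for other DNA-degrading enzymes, 3 to 8 for the secreted, lysosomal and interferon-linked RNases, 3 to 14 for RNA decay nucleases, 0 to 6 for inhibitors and 8 to 21 for sensors. Scaling also changed the split over all genes. Calls rose in 81.3% of cases as deposited and in 52.3% after median-of-ratios scaling, and were 2140 up and 2237 down with quantile normalization. The RNA decay list fell to 4 calls with median-of-ratios, 2 with quantile normalization and 2 with the replicate block plus median-of-ratios, and the inhibitor list to 1, 3 and 1; without a filter the inhibitors had 2 calls. At a mean of 5 FPKM the RNases had 4 calls and the sensors 10. The cause of these changes was not tested.

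Among the 8 nucleases, the ratio of Dnase1l1 (1.22) turned to 0.985 with median-of-ratios and 0.954 with quantile normalization, and that of Rnaset2b (1.28) moved to 1.05 and turned to 0.815. Quantile normalization also moved Dnase1l3 to 1.47, Dnase2a to 1.25 (1.31 with median-of-ratios), Trex1 to 2.61 and Endog to 0.622. With 1 sample left out, ratios ran from 0.0791 to 0.123 for Dnase1, 1.16 to 1.33 for Dnase1l1, 1.45 to 4.27 for Dnase1l3, 1.49 to 1.73 for Dnase2a, 3.07 to 4.72 for Trex1, 0.710 to 0.976 for Endog, 2.14 to 3.02 for Samhd1 and 1.25 to 1.35 for Rnaset2b. The log2 change of Rnaset2a, 0.15, turned to -0.0582 with median-of-ratios, with or without the block, and to -0.37 with quantile normalization. That of Dnase1l2, -0.20, turned to 0.0444 without adenine 2 and 0.0574 without standard 2, ran from -0.40 to 0.0574 when any 1 sample was left out, and was -0.42 with median-of-ratios and -0.69 with quantile normalization. The replicate block ended the call of Dffa (limma adjusted p = 0.0716) and of no other named gene of the 5 wider lists. Quantile normalization ended those of Fen1, Isg20, Lactb2, Rnaseh2a, Isg20l2, Eri1, Hmgb2, Dffa and Mb21d1, and testing without a filter those of Isg20, Eri1, Hmgb2, Actg1 and Dffa. Depth limits Trex1 and Dnase1l3, at an estimated 25.4 and 28.2 fragments in standard 2.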
